A study of Mus musculus with 2 samples.

Results

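Collagens are secreted or membrane-bound proteins whose chains wind around each other into a triple helix, each chain type being encoded by its own gene. Fibrillar collagens form the tension-bearing fibrils of mesenchyme, type IV collagen forms the sheet under epithelia and around vessels, and cartilage has fibrils of its own types. FACIT collagens, named for their interrupted triple helices, attach to the surface of fibrils, and transmembrane collagens are anchored in the cell membrane. The limb bud of this stage is loose mesenchyme in an ectodermal jacket, threaded by vessels and entered by muscle precursors and nerves, and its cartilage models are only beginning to condense. The members described here are all probe sets whose single annotated gene symbol reads Col, a number, a and a number, a choice made on names and not on signals. The rule found 82 probe sets of 42 genes, among 45101 probe sets on the array and 18193 genes with a single-symbol probe set.

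RNA of whole limb buds came from E10.5 embryos of the C57BL/6 line, either wild-type or knockout for Bhlha9, a basic helix-loop-helix transcription factor of the limb bud. Each genotype was measured on 1 Affymetrix array. The labels do not say how the allele was built, how many embryos were pooled or in what mix fore and hind limb buds were taken. With 1 array a genotype there is no replicate, no test of the genotype and no biological error, so "higher" and "lower" compare these 2 arrays only, and their number limits the precision. Values are MAS 5.0 signals on a linear scale. A signal counted as detected above a floor, the 40th percentile of each array, which was 41.2 for the wild-type and 41.8 for the knockout. Log2 ratios give knockout minus wild-type, and a gene is represented by its brightest probe set unless said otherwise. Signals of different probe sets depend on their sequences and were not compared with each other. The only error available is the disagreement between probe sets of 1 gene. It gave an SD of 0.28 for a log2 ratio over 5440 genes, of 0.43 where the dimmer probe set read up to 200.6, of 0.29 up to 665.0 and of 0.17 above that.

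The tissues represented on the 2 arrays were not alike. Markers were counted when either array put them above the floor, and the highest and lowest ratios named are over those detected on both. Of all 13088 genes counted in this way, 4.15% were at least 2-fold higher in the knockout and 2.65% at least 2-fold lower. Of the 11491 genes detected on both arrays, 50.9% were lower by any amount. All 12 limb mesenchyme markers had lower knockout signals, 6 of them at least 2-fold, from Lmx1b at -1.92 to Prrx1 at -0.33, and their summed signal went from 37778 to 20690. Of 10 limb ectoderm markers 6 were at least 2-fold higher, from Cdh1 at 1.72 to Krt8 at -0.11, with sums of 6260 and 10622. Of 10 endothelial markers 2 were at least 2-fold lower and 0 higher, from Emcn at 0.44 to Kdr at -1.08, with sums of 6513 and 5502. The other lower one was Tie1, under the knockout floor and at least 2.69-fold lower. Liver markers were at least 2-fold higher in 9 of 9 and summed to 162.1 and 31049. Apoa2, the only one detected on both arrays, was at 4.59. The other 8 were under the wild-type floor, so they could only come out higher, and the wild-type sum includes their readings. Neural tube markers were at least 2-fold higher in 9 of 10 and summed to 515 and 3567. The 5 detected on both arrays ran from Nefl at 2.98 to Tubb3 at 2.27, and the other 5 were under the wild-type floor, among them Olig2, at least 1.42-fold higher. Muscle markers were at least 2-fold higher in 6 of 8 and summed to 2392 and 4105, from Mylpf at 3.17 to Actc1 at -0.47. Of the 6, Myod1 and Tnnt1 were under the wild-type floor. Mesothelial and somite markers were at least 2-fold higher in 4 of 9, from Wt1 at 2.01 to Tcf15 at -0.02, with sums of 1703 and 3288. Neural crest and glial markers were at least 2-fold higher in 2 of 5, from Fabp7 at 4.08 to Sox10 at -0.72, with sums of 699 and 1716. Primitive blood markers were at least 2-fold higher in 1 of 5, from Klf1 at 1.02 to Hbb-y at -0.04, with sums of 85168 and 90642. Notochord and floor plate markers were at least 2-fold higher in 3 of 3 and summed to 741 and 2499. Shh was at 1.52, and the other 2, Foxa1 and Foxa2, were under the wild-type floor. In that list 3 further markers were under the floor on both arrays. Whether fewer cells of a type or less RNA per cell lay behind a lower signal cannot be told apart in bulk tissue, and the part of tissue composition in the collagen values below was not tested. The targeted gene did not check the labels, since the readings of Bhlha9, 7.87 for the wild-type and 1.70 for the knockout, lay under the floors. Where its probe set lies relative to the deleted part was not analysed here.

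Of the 42 collagen genes, 33 were above the floor on at least 1 array, 29 of them on both, and 9 were under it on both. Knockout signals were lower for 23 of the 29, which is 79.3%, against 50.9% of the 11491 genes detected on both arrays. The median log2 ratio of the 33 was -0.25, against 0.01 over all 13088 detected genes, and that of the 29 was -0.28, against -0.01. Most of these differences were small. At least 2-fold lower were 2 of 33 collagens, Col15a1 and Col22a1, or 6.1%, against 2.65% of all detected genes. None was at least 2-fold higher, against 4.15% of all detected genes. With loess the calls over all genes were 638 higher and 260 lower, in place of 543 and 347, and 3 collagens were at least 2-fold lower with loess and with quantile normalization, Col4a1 being the one added, at -1.04 and -1.07. At a threshold of 1.5-fold, 7 collagens or 21.2% were lower, against 11.7% of all genes, and 4 or 12.1% were higher, against 11.2%. The 7 lower genes were Col4a1, Col4a2, Col15a1, Col5a1, Col27a1, Col6a2 and Col22a1. The 4 higher genes were Col2a1, Col8a2, Col19a1 and Col20a1, the last 2 of which could only come out higher because they were under the wild-type floor.

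The excess of lower values was clearest among the collagens with high signals. When the genes detected on both arrays were split into 3 equal parts by mean signal, all 7 collagens of the brightest part, with signals of at least 1179.8, were lower on the knockout array, against 43.0% of all genes in it. They were Col3a1, Col1a2, Col4a1, Col4a2, Col5a2, Col9a1 and Col18a1. Col5a2 lay at the border with a ratio of -0.04. It was at 0.002 with median centring and at 0.63 by its other probe set, so its place among the 7 was not settled. In the middle part 6 of 9 were lower, against 57.2% of all genes, and in the dimmest part 10 of 13, against 52.5%. Under median centring, quantile normalization and loess the number of lower collagens among the 29 was 21 in each case, against 47.1%, 47.2% and 46.6% of all genes. Of 18 collagen genes with 2 or more probe sets detected on both arrays, 15 gave the same sign in each of them. Over all 5440 genes with such probe sets, the brightest pair had the same sign in 69.4%. In the third of these genes with the brightest pairs the share was 77.9%. The exceptions among the collagens were Col11a1, Col5a2 and Col4a6.

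**Figure D1:**
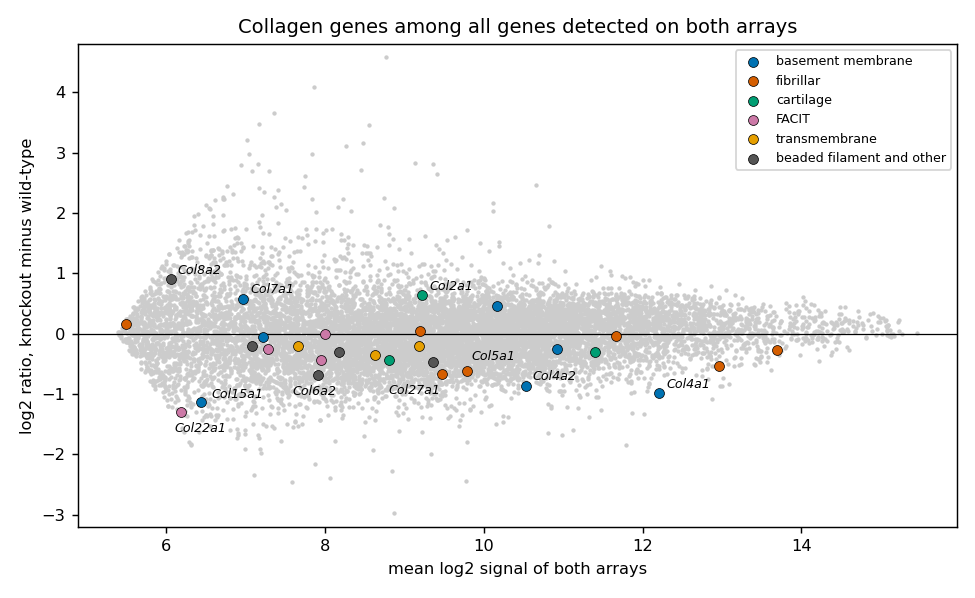
Log2 ratio (knockout minus wild-type, vertical axis) against the mean log2 signal of both arrays (horizontal axis) for all 11491 genes detected on both arrays (grey) and the 29 collagen genes among them, coloured by class. Collagens past or close to 1.5-fold are named, and 23 of the 29 lie below zero.

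Basement membrane collagens held the largest differences of the family among bright probe sets, and they did not move as a block. Type IV collagen, the network-forming collagen of every basement membrane, has 6 chain genes in 3 head-to-head pairs, in which each pair shares the stretch between its start sites. Col4a1 and Col4a2, the chains of the common heterotrimer, were both lower on the knockout array. Col4a1 read 6663 in the wild-type and 3371 in the knockout, a ratio of -0.98, and its further probe set read 921 and 481, a ratio of -0.94. Col4a2 read 1989 and 1092, a ratio of -0.86 from its only probe set. All 3 readings were therefore lower by 1.82-fold to 1.98-fold, well beyond the disagreement SD of 0.17 for bright probe sets. Among all genes detected on both arrays, Col4a1 stood at percentile 2.7 and Col4a2 at percentile 4.2 of the ratios. Across the 8 other settings of scaling, floor and probe set choice, the ratio of Col4a1 ran from -1.07 to -0.94 and that of Col4a2 from -0.86 to -0.82. Changing the floor percentile could not move either ratio at such signals. Probe set choice could not move that of Col4a2, which has only 1 probe set.

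The minor chains gave another picture. Col4a5 read 980 and 1354, a ratio of 0.47, while its further probe set read 346 and 369, a ratio of 0.09. Col4a6, its partner on the X chromosome, read 151 and 145 by one probe set and 125.5 and 134 by the other, ratios of -0.06 and 0.10. Both lie inside the disagreement between probe sets. Col4a3 and Col4a4, chains of mature kidney, lung and ear basement membranes, had all their probe sets under the floor, with signals from 1.59 to 32.6. The pair of type IV genes that makes the ubiquitous network thus read lower by nearly the same factor, and the pair on the X chromosome did not.

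The windows around the start sites of both expressed pairs are shown because the members of 1 pair read lower by nearly the same factor, and the other pair did not read lower. Whether Col4a5 and Col4a6 differ from each other was not settled, since their further probe sets gave 0.09 and 0.10. RefSeq windows of GRCm38.p6, from 250 bases before the start to 50 after it, were found for 33 of the 42 genes. That of Col4a1 is chr8:11312777-11313076 on the minus strand and that of Col4a2 is chr8:11312555-11312854 on the plus strand, and they share 78 bases because the start sites lie 21 bases apart, with the transcripts overlapping. That of Col4a5 is chrX:141475169-141475468 on the plus strand and that of Col4a6 is chrX:141474027-141474326 on the minus strand, with 842 bases between the windows and 1343 between the starts. Capitals mark the GC box GGGCGG and the CCAAT box, searched with the TATA box TATAAA on both strands.
Col4a1: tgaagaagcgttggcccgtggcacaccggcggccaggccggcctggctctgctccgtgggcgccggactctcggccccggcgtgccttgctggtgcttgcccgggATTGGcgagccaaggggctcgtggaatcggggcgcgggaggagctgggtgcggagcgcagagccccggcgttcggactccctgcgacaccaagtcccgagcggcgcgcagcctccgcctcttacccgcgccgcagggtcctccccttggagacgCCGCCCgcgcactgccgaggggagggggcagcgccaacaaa
Col4a2: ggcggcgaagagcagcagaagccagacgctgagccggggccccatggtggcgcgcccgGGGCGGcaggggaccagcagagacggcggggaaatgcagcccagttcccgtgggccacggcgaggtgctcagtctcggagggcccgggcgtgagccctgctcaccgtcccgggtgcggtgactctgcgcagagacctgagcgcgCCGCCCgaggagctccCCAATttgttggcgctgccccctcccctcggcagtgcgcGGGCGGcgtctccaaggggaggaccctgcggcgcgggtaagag
Col4a5: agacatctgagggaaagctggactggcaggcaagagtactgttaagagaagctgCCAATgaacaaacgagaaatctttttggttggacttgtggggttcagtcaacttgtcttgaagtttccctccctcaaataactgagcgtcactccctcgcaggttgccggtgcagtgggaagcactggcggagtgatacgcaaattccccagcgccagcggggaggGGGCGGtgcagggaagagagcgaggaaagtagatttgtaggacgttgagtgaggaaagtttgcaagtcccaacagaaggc
Col4a6: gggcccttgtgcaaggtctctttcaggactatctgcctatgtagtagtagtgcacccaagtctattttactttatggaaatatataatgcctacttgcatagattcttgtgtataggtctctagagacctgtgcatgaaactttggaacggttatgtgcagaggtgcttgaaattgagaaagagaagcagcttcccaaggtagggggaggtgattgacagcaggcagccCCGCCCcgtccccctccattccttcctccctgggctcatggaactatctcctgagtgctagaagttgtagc
GC content was 74.0% and 73.7% in the windows of Col4a1 and Col4a2, and 52.7% and 48.3% in those of Col4a5 and Col4a6, against a median of 52.7% over 32851 windows. GGGCGG occurred 1 time in the Col4a1 window, 3 times in that of Col4a2, and 1 time each in those of Col4a5 and Col4a6. CCAAT occurred 1 time in each of the windows of Col4a1, Col4a2 and Col4a5, and 0 times in that of Col4a6. TATAAA occurred in none of the 4, and no matches overlapped. The Col4a1 and Col4a2 windows have 1 match at the same place, a GGGCGG in the bases they share. Of all 32851 windows 35.7% hold GGGCGG, 37.4% hold CCAAT and 13.6% hold TATAAA, so such matches are common and describe the sequence only.

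Other collagens of the basement membrane zone went both ways. Col15a1, a proteoglycan collagen of vessel and muscle basement membranes, read 128 and 58.6, a ratio of -1.12, on a probe set close to the floor where the disagreement SD was 0.43. Its close relative Col18a1, the source of endostatin, read 2117 and 1780 by its brightest probe set and 1162 and 1109 by the other, ratios of -0.25 and -0.07. Col7a1, the anchoring fibril collagen under stratified epithelium, read 102 and 152, a ratio of 0.58 at low signal. Over the 7 detected genes of this class the median was -0.25, and the class ran from -1.12 to 0.58. Among markers detected on both arrays, 7 of 9 endothelial ones were lower and 8 of 9 ectoderm ones were higher. Of all such genes 50.9% were lower. The part of these tissues in the values of this class was not tested.

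**Figure D2:**
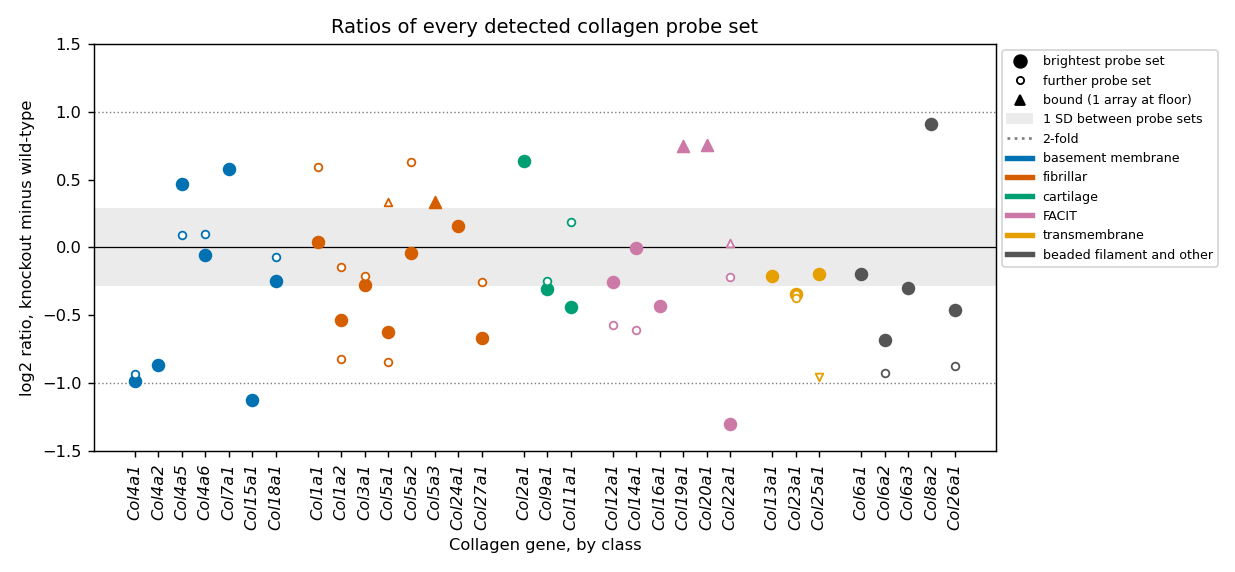
Log2 ratio (vertical axis) of every collagen probe set above the floor on at least 1 array with a ratio to give, by gene and class (horizontal axis). Large filled symbols are the brightest probe set of a gene, small open ones further probe sets, triangles are bounds, the grey band is 1 SD of disagreement between probe sets (0.28) and dotted lines mark 2-fold. Both Col4a1 symbols and Col4a2 lie near the lower line, while Col4a5 and Col4a6 lie at or above zero apart from 1 reading of -0.06.

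Genes for other basement membrane components were mostly lower as well. The median of 12 detected partners in a list of laminins, nidogens, perlecan and agrin was -0.28. Of these, 4 were lower by 1.5-fold or more and 0 higher, against 11.7% and 11.2% of all detected genes. Of the 11 detected on both arrays 9 were lower, against 50.9% of all such genes. Lama4, the laminin chain of vessel basement membranes, read 813 and 382, a ratio of -1.09. Lamb2 read 202.5 and 112 (-0.86), Nid1, the nidogen that links laminin to type IV collagen, read 3694 and 2147 (-0.78), and Lama2, the muscle laminin chain, read 185.5 and 114 (-0.71). With the floor at the 60th percentile, Lama2 and Lamb2 were at -0.27 and -0.40, short of 1.5-fold. Lama5 (0.34) and Lamc1 (0.16) had the positive ratios.

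Of the 7 fibrillar collagens detected on both arrays 5 had lower knockout signals, against 50.9% of all such genes. Col5a2, at -0.04, was among the 5. Chains of the same molecule read differently. Type I collagen combines chains of Col1a1 and Col1a2. Col1a1 read 579 and 594, a ratio of 0.04, and by its further probe set 216 and 326, a ratio of 0.60. Col1a2 read 9629 and 6626, a ratio of -0.54, and by its further probe sets 2665 and 2409 (-0.15) and 270 and 153 (-0.82). Every Col1a2 reading was thus lower on the knockout array and every Col1a1 reading higher, though the readings of either gene spread over more than 0.5 log2 units. Col3a1, the homotrimeric collagen that co-assembles with type I in soft mesenchyme, read 14571 and 12028 (-0.28) and 2273 and 1966 (-0.21).

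The readings of type V collagen, which starts fibril assembly, also went both ways. Col5a1 read 1101 and 714, a ratio of -0.62, and 624 and 346 by a further probe set, a ratio of -0.85, while another probe set was under the wild-type floor at 18.5 and read 52.1 on the knockout array. Col5a2 read 3287 and 3199, a ratio of -0.04, but 1128 and 1745 by its other probe set, a ratio of 0.63. The difference between these Col5a2 readings is larger than the disagreement of bright probe sets, so its direction was not settled, and it also turned with median centring and with the mean of probe sets. Col5a3 went from 17.0, under the wild-type floor, to 52.0 in the knockout, at least 1.26-fold higher.

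Of the minor fibrillar genes, Col27a1, a thin-fibril collagen of cartilage and some epithelia, read 897 and 566, a ratio of -0.66, with 216 and 181 (-0.26) by its other probe set. Col24a1, a minor collagen of developing bone, read 42.5 and 47.6, barely above the floors. The median of the 8 fibrillar genes was -0.16, or -0.28 over the 7 detected on both arrays, and 2 of them, Col5a1 and Col27a1, were at least 1.5-fold lower.

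**Figure D3:**
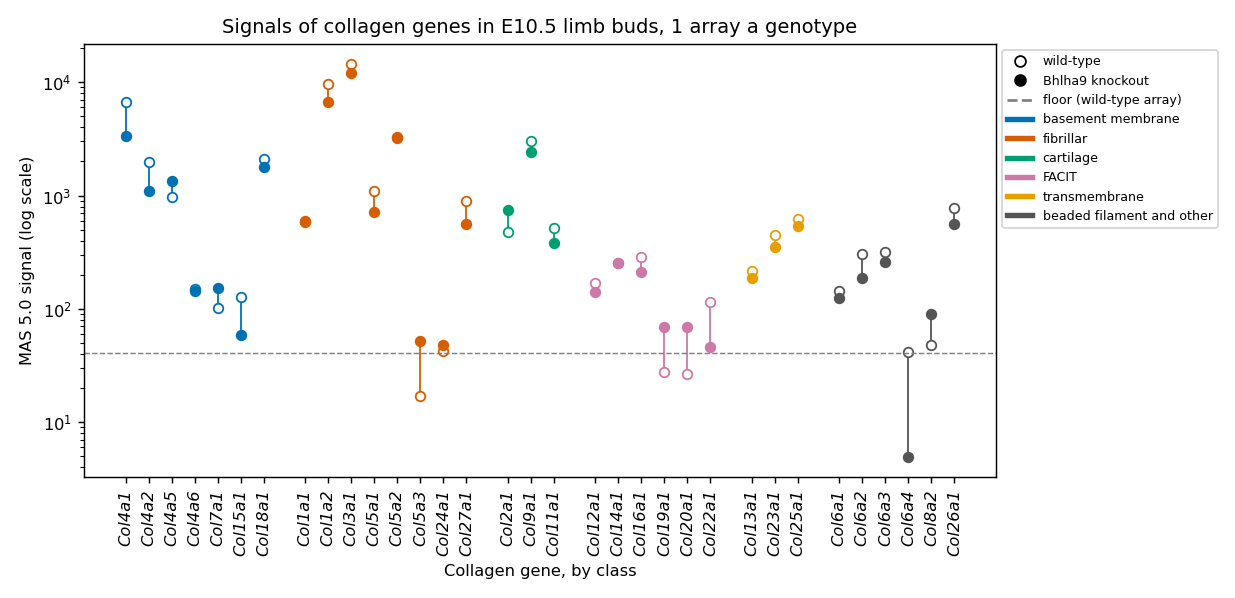
MAS 5.0 signal (vertical axis, log scale) of the brightest probe set of each of the 33 detected collagen genes (horizontal axis, by class) on the wild-type array (open circles) and the knockout array (filled circles), joined by a line. The dashed line is the wild-type floor of 41.2, and heights should not be compared between genes because probe sets differ in response. Filled circles lie lower for 23 of the 29 genes above the floor on both arrays.

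Cartilage collagens were only partly detected, and Col2a1 stood out as higher. Col2a1 encodes the main fibril collagen of cartilage and is also made by notochord and some early epithelia. It read 479 and 744, a ratio of 0.64, at percentile 92.3 of the genes detected on both arrays, and its ratio was between 0.60 and 0.74 in all settings that kept its single probe set. Col9a1, a fibril-surface collagen of cartilage, read 3006 and 2428 (-0.31) and 400 and 337 (-0.25). Col11a1, which sets fibril width in cartilage, read 522 and 385 (-0.44) by one probe set and 415 and 472 (0.19) by the other, so the 2 readings of this gene opposed each other. The other cartilage genes, Col9a2, Col9a3, Col11a2 and the hypertrophic marker Col10a1, were under the floor on both arrays, with signals of their brightest probe sets from 2.37 to 35.6. Beside Col2a1, the notochord and floor plate marker Shh, which the posterior limb bud also expresses, read 693 and 1986. Foxa1 and Foxa2 of that list went from 21.2 and 26.6, under the wild-type floor, to 314 and 199, so they could only come out higher, and Chrd, Nog and Foxj1 were under the floor on both arrays. Their part in the Col2a1 value was not tested.

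Cartilage partner genes gave no common direction. Sox9, the regulator that activates Col2a1, Col9a1 and Col11a2 transcription, read 713 and 599 (-0.25). Its cofactors Sox5 and Sox6 had ratios of -0.69 and -0.13. Sox5 fell short of 1.5-fold with quantile normalization and loess, at -0.56 and -0.55. With the mean of its probe sets Sox5 was at -1.07. Hapln1, the link protein of the cartilage matrix, read 1315 and 2112 (0.68). Matn3, a matrilin, read 120 and 149 (0.32), or 0.009 with the mean of its probe sets. Acan, the large cartilage proteoglycan, read 64.9 on the wild-type array and was under the knockout floor at 18.9, at least 1.55-fold lower. The median of the 8 detected partners was -0.04, and past 1.5-fold 1 of them was higher and 2 were lower, against 11.2% and 11.7% of all detected genes.

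FACIT collagens were dim. The 4 detected on both arrays had negative ratios, against 50.9% of all such genes, and Col14a1 among them lay at only -0.01. Col12a1 and Col14a1 decorate type I fibrils in tendon, dermis and other dense tissue. Col12a1 read 169 and 142 (-0.25) and 73.9 and 49.7 (-0.57), and Col14a1 read 255 and 254 (-0.01) and 82.1 and 53.8 (-0.61), the first of which turned positive with median centring, quantile normalization and loess. Col16a1, a FACIT of dermis and cartilage margins, read 287.5 and 213 (-0.44). Col22a1, a collagen of tissue junctions such as that of muscle and tendon, read 114.5 and 46.4, a ratio of -1.30 and the lowest in the family. That probe set is of a kind shared between transcripts, and a further one read 65.8 and 56.7, a ratio of -0.22, within the disagreement SD of dim probe sets. Another probe set was under the wild-type floor at 30.5 and read 42.2 on the knockout array. The 2-fold call of Col22a1 was therefore not met by its other probe sets.

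A pair of FACIT genes ran the other way at the edge of detection. Col19a1, found in muscle and in some neurons, went from 27.9, under the wild-type floor, to 69.1 in the knockout, at least 1.68-fold higher. Col20a1 likewise went from 26.8 to 69.7, at least 1.69-fold higher. Further probe sets of both genes were under the floor on both arrays, at 33.8 or less. The median of the 6 FACIT genes was -0.13, or -0.34 over the 4 detected on both arrays, and with quantile normalization and loess the former was 0.005 and 0.01. Muscle and neural tube markers were higher on the knockout array, and their part in the Col19a1 value was not tested.

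The transmembrane collagens had small negative ratios. Col13a1, a collagen of cell adhesion sites and the neuromuscular junction, read 216.5 and 187 (-0.21). Col23a1, a membrane collagen that can be shed from the cell surface, read 447 and 352 (-0.35), 376 and 296 (-0.35) and 345 and 267 (-0.37) by 3 probe sets, which spread less than the 3 of Col1a2. Col25a1, a neuronal membrane collagen, read 620 and 540.1 (-0.20), and its other probe set went from 80.9 to under the knockout floor at 40.4, at least 1.94-fold lower. Col17a1, the hemidesmosome collagen of basal epidermis, was under the floor at 13.5 and 34.2. Their median was -0.21 over 3 detected genes, and 0 of them passed 1.5-fold.

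Type VI collagen, which forms beaded filaments around cells, was lower in all its 3 main chains. Col6a1 read 144 and 125.5 (-0.20), Col6a3 read 320 and 260 (-0.30), and Col6a2 read 304 and 189 (-0.68), with 185.5 and 97.8 (-0.92) by a probe set prone to cross-hybridisation. At such signals the ratio of Col6a1 is smaller than the disagreement SD, that of Col6a3 about as large and that of Col6a2 larger. Col6a4 read 41.6 on the wild-type array, just above the floor, and 4.93 on the knockout array, which gives no fold. Col6a5 was under the floor on both arrays.

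The short-chain and remaining collagens were few. Col8a2, a network collagen of corneal and vascular matrix, read 48.5 and 90.9, a ratio of 0.91 and the highest in the family among genes detected on both arrays, though near the floor. Its partner chain Col8a1 was under the floor in all 3 probe sets, at 13.0 or less. Col26a1, a small collagen-like matrix protein, read 773 and 561 (-0.46) and 275 and 150 (-0.88). Over the 6 detected genes of types VI, VIII and XXVI the median was -0.25.

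Genes of the collagen assembly line were examined from lists written by function. Collagen chains are hydroxylated and glycosylated in the endoplasmic reticulum before they fold, and this list was lower in most members. The median of the 15 detected genes was -0.50. Of these, 5 were lower by 1.5-fold or more and 0 higher, against the all-gene shares of 11.7% and 11.2%, and 12 of the 14 detected on both arrays were lower, against 50.9%. The lysyl hydroxylases Plod1 and Plod3 read 357 and 188 (-0.93) and 698 and 392 (-0.83), the galactosyltransferase Colgalt1 read 997 and 577.5 (-0.79), and the prolyl 3-hydroxylase P3h3 read 470 and 299 (-0.65), or -0.52 with quantile normalization and loess. The dim Colgalt2, with 48.7 and 73.0, was at 0.58.

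Folding and secretion genes did not share that direction. The median of the 9 detected genes was 0.16, with 4 lower by any amount, 1 lower by 1.5-fold or more and 0 higher by as much. The all-gene shares were 50.9%, 11.7% and 11.2%. Mia3, which loads procollagen into large transport carriers, read 1793 and 1074 (-0.74), whereas Sec23a, of the coat that buds these carriers, read 2539 and 3647 (0.52). Creb3l1, an activator of secretory genes, was at 0.43 on signals of 52.8 and 71.1, and Fkbp14, a collagen-folding isomerase, was at 0.39.

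Processing and cross-linking genes were split. Over the 10 detected genes the median was -0.17, and past 1.5-fold 1 was lower and 0 were higher, against all-gene shares of 11.7% and 11.2%. Bmp1, the protease that removes the C-terminal propeptide, read 872 and 457 (-0.93), and Pxdn, the peroxidasin that cross-links type IV collagen, read 5695 and 3939 (-0.53). The lysyl oxidases Lox and Loxl1, which cross-link fibrils, had ratios of 0.54 and 0.47 on signals from 116 to 206. With the floor at the 60th percentile they were at 0.002 and 0.29.

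Fibril-regulating proteoglycans had a median of 0.43 over 4 detected genes, and 1 of them was at least 1.5-fold higher and 0 lower, against all-gene shares of 11.2% and 11.7%. Dcn, encoding decorin, read 459 and 821 (0.84), and Lum read 1475 and 1916 (0.38). Bgn, encoding biglycan, read 523 and 408 (-0.36), and its ratio was -0.875 with the mean of its probe sets. Fmod was at 0.49 by its brightest probe set, but at 0.02 with the mean of its probe sets and at -0.52 with probe sets without a suffix, so its direction and the list's median depend on the probe set. The other 4 genes of the list were under the floor on both arrays. Collagen receptors had a median of -0.32 over 7 detected genes, with 1 at least 1.5-fold higher and 2 lower, against the same shares. The epithelial receptor Ddr1 read 942 and 1849 (0.97) by its brightest probe set, but its ratio was 0.21 with the mean of its probe sets and -0.45 with probe sets without a suffix, so its direction was not settled. Its mesenchymal relative Ddr2 read 1580 and 1052 (-0.59). The collagen uptake receptor Mrc2 read 1106 and 732 (-0.60), and its ratio was -0.13 with the mean of its probe sets. Under median centring, quantile normalization and loess, Ddr2 and Mrc2 were between -0.56 and -0.52, short of 1.5-fold. The integrin chain Itga10, a collagen receptor of cartilage, was at -0.42.

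**Figure D4:**
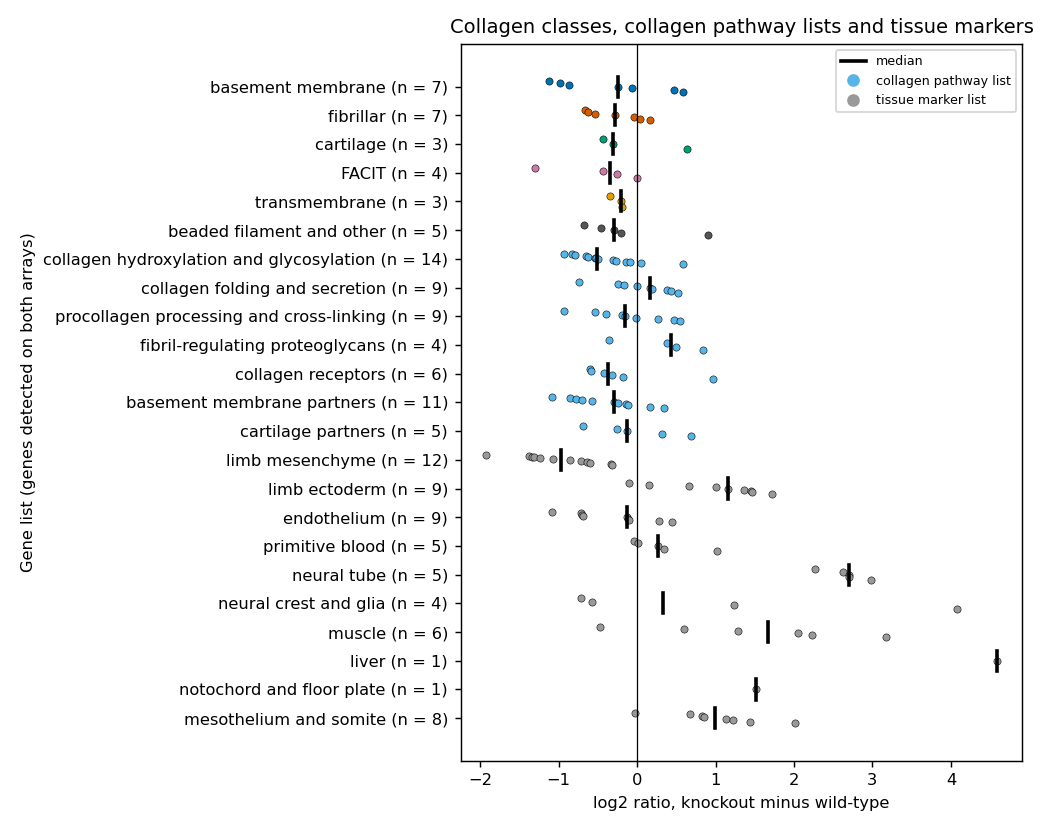
Log2 ratio (horizontal axis) of each gene detected on both arrays, as 1 point per gene, in the 6 collagen classes, 7 collagen pathway lists and 10 tissue marker lists (vertical axis, with the number of genes). Black bars are medians. The collagen medians lie between -0.34 and -0.21. The limb mesenchyme median is -0.96, with single markers from -1.92 to -0.33.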

How the data were processed

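The authors summarised 1 Affymetrix Mouse Genome 430 2.0 array per genotype with MAS 5.0, per the series' design text, and deposited a linear signal intensity for each probe set. Labelling started from 200 ng of total RNA with a 3′ IVT kit, per the labels' protocols. MAS 5.0 scales each array on its own (the 2% trimmed mean was 500.0 on both) and uses mismatch probes, so signals near the floor are noisy.

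From these intensities, 64 control probe sets were set aside. The platform annotation gave 34945 probe sets 1 symbol, of which 34741 matched RefSeq genes of GRCm38.p6. A further 932 had several symbols and 9160 none. Signals were raised to the floor, the 40th percentile of each array, and genes were counted at 2-fold and 1.5-fold. "At least N-fold" marks a ratio with 1 array at the floor.

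Every collagen of the rule was described. In the pathway lists, members past 2-fold and otherwise the 4 largest ratios on both arrays were named, and in the marker lists the highest and lowest. Lama5, Lamc1, Sox6, Acan, Colgalt2, Foxa1 and Foxa2 were named after their values were seen. The members and lists were chosen with earlier results of these data known. Col21a1, Col28a1 and Col6a6 had no single-symbol probe set and were not analysed here.

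Alternatives changed the scaling, floor, pseudocount, probe set choice, threshold and classes. The steps were tested on simulated data. The planted changes were larger than any collagen difference here and lay in genes well above the floor. Recovery of smaller or dimmer differences was not tested. The tools were Python 3.11.15, numpy 2.4.6, pandas 2.3.3, matplotlib 3.10.9, R 4.3.3 and, for quantile and loess normalization, limma 3.58.1.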

Additional observations from a re-analysis of the deposited data

How the results depend on the processing

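At the 2-fold threshold, 0 collagens were higher and 2 lower. With the floor at the 20th percentile, 6 were higher and 4 lower among 40 detected. Over all genes that floor gave 1860 higher and 1365 lower, in place of 543 and 347. No collagen was lower with the floor at the 60th percentile (22 detected, without Col15a1 and Col22a1), with no floor and a pseudocount of 32, or at a threshold of 3-fold. With the mean of detected probe sets or with probe sets without a suffix, 1 collagen was lower. Over all genes the lower counts were 157 with the 60th percentile floor, 336 with the pseudocount, 310 with the mean and 351 without a suffix. At 1.5-fold 4 collagens were higher and 7 lower, with all-gene shares of 11.2% and 11.7%. The median of all collagens ran from -0.30 to -0.11 over the 8 settings of scaling, floor and probe set choice. With that 60th percentile floor, which left 4 genes of the class, the basement membrane median was -0.56, and the other class medians moved by less than 0.28. Of 250 values of single collagens under these settings 232 moved by less than 0.28. Many could not move, since probe set choice leaves a gene with 1 probe set unchanged and the floors leave bright genes unchanged. The 2 genes past 2-fold, Col15a1 and Col22a1, kept their sign wherever they were detected. Col14a1, Col4a6 and Col5a2 did change sign, all from ratios near zero. No paired analysis was possible because each genotype is 1 array. Low signal limits the readings of types VIII, XV, XIX, XX and XXII most.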
